A study of Mus musculus with 22 samples.

Results

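The genes described here are 10 members of the YAP and TEAD pathway: Yap1, Wwtr1, Tead1, Tead2, Lats2, Amotl2, Ccn1, Ccn2, Ankrd1 and Axin1. They were found by gene symbol in the platform annotation, with Cyr61 and Ctgf allowed as older names of Ccn1 and Ccn2. Each member matched 1 probe set, and these 10 stand among 14860 genes measured by a probe set with 1 symbol. The Tead1 probe set is the exception, with 2 symbols, Tead1 and 2610024B07Rik, and RefSeq lists the latter as a synonym of Tead1. Symbols chose the members, not levels, but Ccn2 was included with its higher level in engineered lines already known.

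YAP (gene Yap1) and TAZ (gene Wwtr1) are transcriptional coactivators that have no DNA-binding domain of their own and reach DNA through TEAD transcription factors. The Hippo kinases, among them LATS1 and LATS2, phosphorylate both proteins, which keeps them out of the nucleus and promotes their breakdown. Spread cells on stiff substrates and low cell density favour nuclear YAP and TAZ, while dense epithelium and its junctions restrain them. In mammary epithelium TAZ is known for its link to basal and stem-like traits. Much of this control acts on the proteins, which an RNA array does not measure.

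The study measured RNA on exon arrays in 22 mouse mammary cell lines harvested while growing in culture, with 1 array per line. Tumours of genetically engineered mice (GEM) gave 12 of the lines, spontaneous tumours gave 8, and 2 immortalized lines came from non-tumour mammary gland. Values are deposited array values taken as log2, and differences are in log2 units. Where labels gave lines the same source (a tumour, a parent or a D2 nodule), their values were averaged, which left 17 lineages: 10 GEM, 5 spontaneous and 2 immortalized.

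Among the GEM lines, 6DT1, cMyc and Myc83 carry MMTV-Myc, and MVT1 and MVT2 carry both MMTV-Myc and MMTV-VEGF, where MMTV is the mammary tumour virus promoter. Lines 2508 and 2855 carry MMTV-Wnt and share the tumour ZD2508. M6 comes from a C3(1)Tag tumour, in which SV40 T antigen is expressed, and M6C comes from a lung metastasis of M6. DB7 comes from a transplanted tumour with MMTV-PyVT Db, a double mutant of the polyoma middle T protein. Line 780 is described as BRCA-/-;p53+/+ with Wap-cre and p1522 as p53-/- with MMTV-cre, while the culture notes give p53+/- for both models. Of the spontaneous lines, 67NR, 4T07 and 4T1 come from 1 tumour, D2A1 and D20R from a D2 hyperplastic alveolar nodule line, and EMT6, F311 and TSA are on their own. Drug resistance was introduced by transfection in 67NR and 4T07 and arose by selection in 4T1, and F311 is a sarcomatoid clone. EPH4 is a subclone that holds an empty retroviral vector, and NMUMG grew out of adult mammary gland.

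The Wnt lines grew with less serum and with added insulin and epidermal growth factor, unlike the other GEM lines, so medium and Wnt driver cannot be told apart. For the spontaneous and immortalized lines the sources used here give no media. A line is a bulk culture, so fewer expressing cells and less RNA per cell cannot be told apart either. Array medians over the tested probe sets lay between 6.78 and 7.17, and the spread of values was narrowest on the arrays of 2855, 2508 and F311. Fewer than 5 of 9 epithelial markers exceeded the array median in 13 lines, 2508, 67NR, 6DT1, 780, cMyc, D2A1, D20R, EMT6, MVT1, MVT2, NMUMG, p1522 and TSA. The mean of those markers ran from 6.29 to 10.37 in GEM, from 6.18 to 9.80 in spontaneous and from 8.16 to 9.44 in immortalized lines. The leukocyte marker Ptprc and the endothelial marker Pecam1 exceeded the array median in 0 lines. Of 5 measured immune markers, 0 to 1 exceeded it in GEM, 0 to 2 in spontaneous and 1 in immortalized lines. Of 5 endothelial markers, 0 exceeded it in any line.

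Promoter sequence is shown for the members whose RNA serves as a readout of the pathway, since TEAD factors bind GGAATG and its reverse complement CATTCC. RefSeq windows from 250 bases before to 50 bases after an annotated gene start (GRCm38.p6) were matched for 7 of the 10 members, in 9 windows. No window was found for Ccn2, Tead1 and Axin1, so their promoters were not searched for either motif. The motif GGAATG, read on both strands, was found in 7 of the 9 windows, belonging to Ccn1, Ankrd1, Amotl2, Yap1, Wwtr1 and Lats2, against 14.7% of all 32851 windows. The AP-1 motif TGANTCA, a site of Fos and Jun proteins that equals its own reverse complement, was found in 0 of the 9 windows and in 7.81% of all windows. With no AP-1 match in these windows, the motifs do not overlap there. A match is a description of the letters in the window and does not show that a factor binds there.

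The 250 bases before the start are given for 3 target genes on the strand of the gene, with the TEAD motif in capitals. Ccn1 lies at chr3:145649986-145650235 on the minus strand, with its match starting 103 bases upstream. Ankrd1 lies at chr19:36119845-36120094 on the minus strand, with matches starting 210 and 123 bases upstream. Amotl2 lies at chr9:102717554-102717803 on the plus strand, with its match starting 65 bases upstream.
Ccn1: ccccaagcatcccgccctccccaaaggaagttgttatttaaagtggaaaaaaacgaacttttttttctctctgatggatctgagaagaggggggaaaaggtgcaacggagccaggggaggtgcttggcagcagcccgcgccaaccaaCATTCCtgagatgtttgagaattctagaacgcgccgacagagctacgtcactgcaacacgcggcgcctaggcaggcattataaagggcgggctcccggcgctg
Ankrd1: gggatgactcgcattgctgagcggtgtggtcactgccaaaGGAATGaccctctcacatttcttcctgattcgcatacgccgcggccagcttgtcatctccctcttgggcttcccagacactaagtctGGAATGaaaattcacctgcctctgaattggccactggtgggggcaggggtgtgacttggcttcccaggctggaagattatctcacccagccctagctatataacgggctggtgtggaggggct
Amotl2: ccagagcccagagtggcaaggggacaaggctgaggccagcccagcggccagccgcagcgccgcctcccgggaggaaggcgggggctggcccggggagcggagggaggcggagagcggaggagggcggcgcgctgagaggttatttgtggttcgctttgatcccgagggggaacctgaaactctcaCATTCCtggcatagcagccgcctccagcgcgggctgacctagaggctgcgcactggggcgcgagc

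For the kinase and the coactivators 30 bases around each match are given, because the motif also lies in genes that act upstream of TEAD. Yap1 lies at chr9:8004720-8004749, Wwtr1 at chr3:57576029-57576058 and Lats2 at chr14:57746102-57746131, all on the minus strand. The Wwtr1 match is the same site in both of its overlapping windows, and the Lats2 match lies 4 bases after the start of the first of its windows.
Yap1: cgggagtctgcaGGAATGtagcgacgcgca
Wwtr1: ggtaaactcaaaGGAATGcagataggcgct
Lats2: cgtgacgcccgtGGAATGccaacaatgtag

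Yap1 varied little across the lines and Wwtr1 more. Yap1 ran from 8.54 through a median of 8.81 to 9.09 in the GEM lines and from 8.49 through 8.78 to 9.43 in the spontaneous lines. EPH4 read 8.53 and NMUMG 8.68. The ranges overlapped throughout, with D2A1 highest and 67NR lowest of the 22 lines, and its SD over the 17 lineages was 0.19, larger than that of only 12.9% of probe sets.

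Wwtr1 ran from 8.71 through 9.05 to 9.38 in GEM and from 8.45 through 9.07 to 9.93 in spontaneous lines. Its SD over the 17 lineages was 0.29, larger than that of 45.7% of probe sets. Its highest value, 9.93, was in 67NR, the line where Yap1 was lowest. Its lowest value was 8.30 in EPH4, F311 followed at 8.45 and NMUMG at 8.69. Lines with high epithelial markers tended to have less Wwtr1, with Pearson r = -0.58 and Spearman rho = -0.40 between Wwtr1 and the epithelial marker mean over 17 lineages.

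The TEAD factors are the DNA-binding partners of YAP and TAZ. Tead1 lay between 9.71 and 10.84 in 21 of the lines and at 8.67 in DB7, the polyoma middle T line, which stood 1.04 below the next line, F311. Tead2 varied more, from 7.40 in 6DT1, 7.77 in MVT1 and 7.79 in 67NR to 10.55 in D2A1. The 3 lines under 8 came from both tumour origins. Other lines of the same driver or tumour were higher, with 9.10 in MVT2 beside MVT1 and 9.86 in 4T07 beside 67NR.

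Lats2 encodes a kinase that inactivates YAP and TAZ and is itself a target gene of theirs. It ran from 8.22 through 8.68 to 9.02 in GEM lines and from 7.88 through 8.19 to 8.72 in spontaneous lines, with 8.14 in EPH4 and 8.73 in NMUMG. MVT1 was highest and 67NR lowest, and 4 of 8 spontaneous lines (67NR, F311, D2A1 and D20R) lay below every GEM line. Amotl2 encodes an angiomotin that binds YAP at junctions and is also a target gene. It ran from 7.89 through 8.23 to 9.33 in GEM, from 7.93 through 8.33 to 8.92 in spontaneous lines, and read 8.40 in EPH4 and 8.96 in NMUMG. Lines 2508 and 2855 held the highest values, 9.33 and 9.19, and p1522 the lowest, so both ends of the range were GEM lines.

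Ccn1 and Ccn2 encode secreted matricellular proteins and are the usual readouts of YAP and TAZ activity. Ccn1 exceeded the array median in every line and ran from 9.77 through 10.81 to 12.44 in GEM, from 9.72 through 10.74 to 11.65 in spontaneous lines, and at 11.27 in EPH4 and 10.70 in NMUMG. The highest value was in 2855, followed by Myc83 at 11.88 and 2508 at 11.85, and the lowest were 4T07 at 9.72 and M6C at 9.77. All 3 groups overlapped.

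Ccn2 had the largest difference between GEM and spontaneous lines of the 10 members. The GEM lines ran from 10.20 in p1522 through a median of 11.35 to 12.21 in Myc83, and 10 of the 12 exceeded every spontaneous line. Among spontaneous lines, 67NR read 8.05, TSA 8.71, D2A1 8.92, 4T07 10.03, EMT6 10.53, F311 10.61, 4T1 11.05 and D20R 11.10. EPH4 read 10.97, within both the GEM and the spontaneous range, and NMUMG read 11.85, within the GEM range and above every spontaneous line. The 4 lowest spontaneous lines lay below every GEM line, and p1522 and M6 (11.03) were the GEM lines that overlapped the spontaneous range.

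Ankrd1 encodes a nuclear ankyrin-repeat protein first known from heart muscle and is a strong target of YAP. It ran from 6.96 through 10.16 to 10.85 in GEM lines, from 8.32 through 9.86 to 11.35 in spontaneous lines, and read 10.54 in EPH4 and 11.05 in NMUMG. The lowest value belonged to 2508, which stood 1.25 below M6C (8.20), and it is the 1 value of all members that lay under its own array's median. The highest belonged to 4T1. Axin1 is the scaffold of the complex that degrades beta-catenin, to which YAP and TAZ can bind. It stayed within 0.92 over all lines, from 8.65 in DB7 to 9.57 in F311, with medians of 9.13 in GEM and 9.26 in spontaneous lines and with 9.24 in EPH4 and 9.09 in NMUMG.

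**Figure D1:**
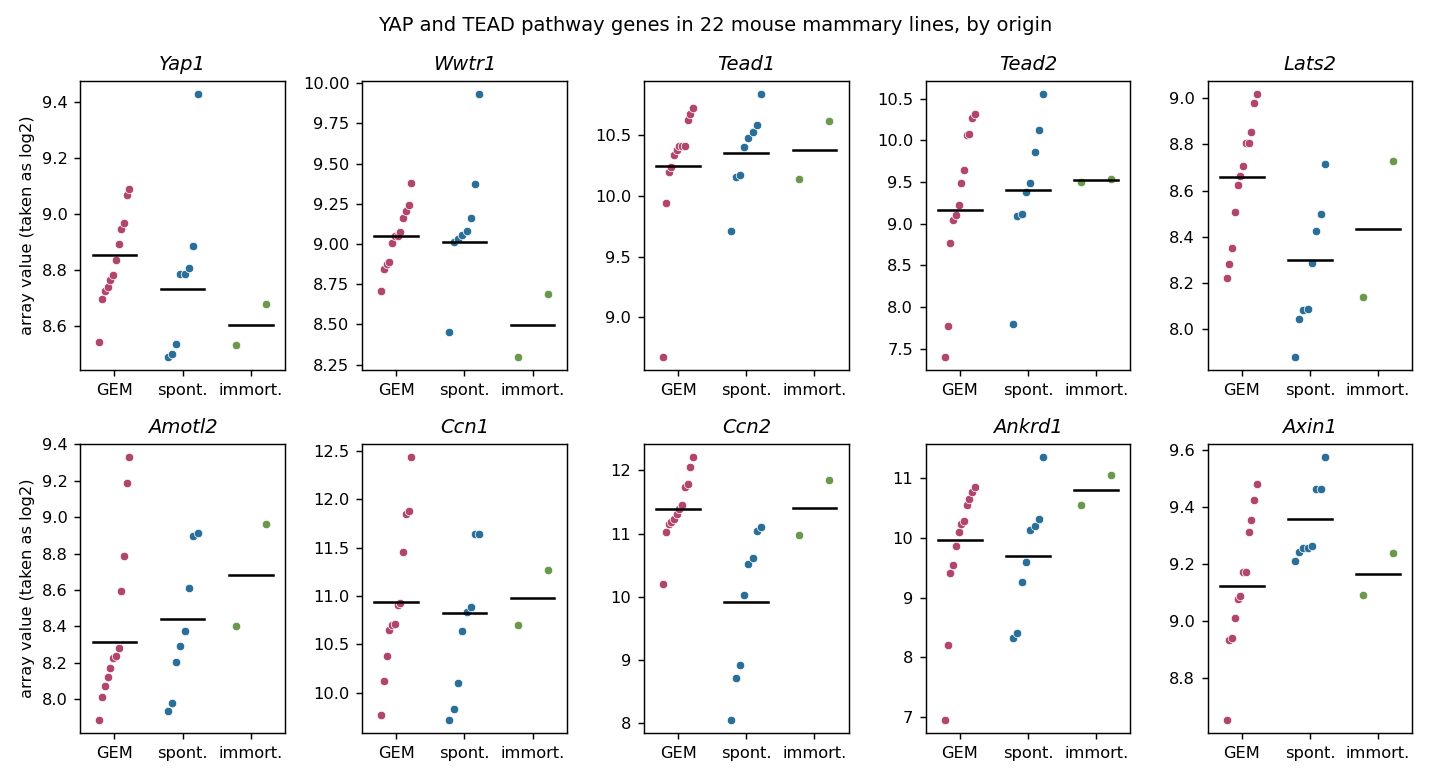
Levels of the 10 members (vertical axes, array values taken as log2, a separate scale for each gene) in GEM, spontaneous and immortalized lines. Points are single lines and bars are means of lineage means. Ccn2 has 4 spontaneous lines below every GEM line, and Tead1 has DB7 alone at 8.67.

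**Figure D2:**
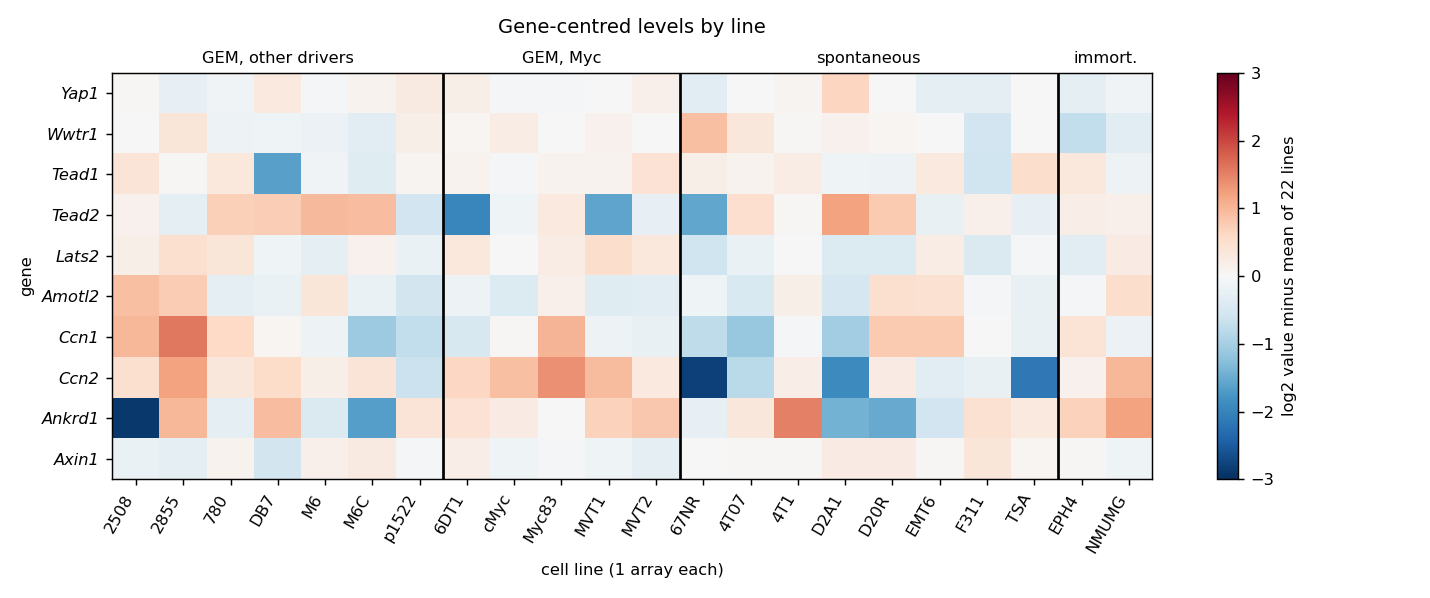
Each line's value minus the gene's mean over 22 lines (colour, log2 units), with lines in columns by origin and driver and genes in rows. Ankrd1 in 2508 (6.96), Ccn2 in 67NR (8.05), TSA (8.71) and D2A1 (8.92) and Tead2 in 6DT1 (7.40) are the 5 deepest low values, and Yap1, Lats2 and Axin1 change little in colour.

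Tumour origin was compared first, GEM against spontaneous. Mean Ccn2 was 11.39 ± 0.54 (SD, n = 10 lineages) for GEM and 9.91 ± 0.77 (SD, n = 5) for spontaneous tumours, a difference of 1.48 (SE 0.31) or 2.79-fold, with 9 of 10 GEM lineages above every spontaneous lineage. It missed the threshold over all 16755 probe sets (limma, adjusted p = 0.0909), and since Ccn2 was picked with this direction known, its p is not independent evidence. Without p1522, the GEM lineage lowest in Ccn2, the difference was 1.61 and passed (adjusted p = 0.0295). When left out in turn, each of the other lineages gave an adjusted p from 0.0746 to 0.204.

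Within the 4T and D2 lineages the spread of Ccn2 was wider than the gap between origins. The 3 lines of the 4T tumour spanned 2.99 from 67NR to 4T1, and D2A1 and D20R stood 2.18 apart. With each line as a replicate and lineage as a random block, the difference kept its sign with an adjusted p of 0.368 (limma). Basal markers were higher in GEM at 5 of 5 (median difference 0.67), with 0 at an unadjusted p under 0.05 in limma. That median was the difference of Acta2 (SE 1.24), which was 0.083 without TSA and -0.15 without the 3 arrays of narrowest spread. The basal marker mean ran from 6.01 to 11.53 (line 2508) in GEM and from 5.72 to 7.55 in spontaneous lines. The part of basal markers in the Ccn2 difference was not tested.

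Lats2 differed by 0.36 (SE 0.15, adjusted p = 0.546): the GEM mean was 8.66 ± 0.25 (SD, n = 10) and the spontaneous mean 8.30 ± 0.28 (SD, n = 5). Axin1 differed by -0.24 (SE 0.12, adjusted p = 0.709), at 9.12 ± 0.24 against 9.36 ± 0.15. For the other target genes the 95% interval of the difference ran from -0.55 to 0.78 for Ccn1, from -0.50 to 1.05 for Ankrd1 and from -0.53 to 0.28 for Amotl2. The gap in Ccn2 was therefore outside the intervals of these targets, although whether the genes differ from each other was not tested.

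The coactivators differed little, with a difference of 0.12 for Yap1 (95% interval -0.11 to 0.36) and 0.04 for Wwtr1 (-0.25 to 0.32). Intervals were wider for the factors, at -0.11 for Tead1 (-0.68 to 0.46) and -0.25 for Tead2 (-1.12 to 0.63). Without D2 the Tead2 difference was -0.015. In all, 0 of the 10 members passed an adjusted p of 0.05 in limma, where 0.113% of all probe sets passed in either direction. At an unadjusted p under 0.05 there were 2 members, Ccn2 and Lats2, where 7.72% of all probe sets reached that level. No member had lineages that did not overlap, against 0.34% of probe sets.

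Around the members, lists of pathway genes were compared between GEM and spontaneous lineages, and no listed gene passed an adjusted p of 0.05 in limma. The median over all tested probe sets was -0.04. Among Hippo kinases and upstream regulators, 9 of 14 measured genes were higher in GEM (median 0.09), and 2 had an unadjusted p under 0.05, Lats2 and Nf2. Nf2, which encodes merlin, an upstream activator of the LATS kinases, differed by -0.48 (SE 0.22). Among coactivators, TEAD factors and their partners 5 of 12 were higher (median -0.07), with the largest differences for Tead3 (-0.44, SE 0.28) and the angiomotin gene Amot (-0.26, SE 0.29).

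Of the measured YAP and TAZ target genes, 12 of 19 were higher in GEM (median 0.10), and 3 had an unadjusted p under 0.05, Ccn2, Lats2 and the kinase gene Nuak2 (0.52, SE 0.20). The receptor kinase gene Axl, also a target, differed by -0.69 (SE 0.44). In the CCN family 5 of 5 were higher (median 0.26), and Ccn3 differed by 0.59 (SE 0.44), with group means of 6.85 and 6.26, near or under the array medians. Actin and serum response factor targets were higher at 9 of 13 (median 0.19), with 0 at an unadjusted p under 0.05. There Acta2, smooth muscle actin, differed by 0.67 (SE 1.24), by 0.083 without TSA and by 1.90 without EMT6. Actg2 differed by 0.58 (SE 0.45), by 0.35 without Myc83, with means of 6.10 and 5.51 that are under all array medians, so its size is poorly known.

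In the beta-catenin destruction complex 4 of 8 were higher and 4 lower (median 0.07), and 4 had an unadjusted p under 0.05. Axin2, a feedback target of Wnt signalling, differed by -0.72 (SE 0.34) and by -0.33 without F311, and Btrc, the ubiquitin ligase subunit that recognizes phosphorylated beta-catenin and YAP, by -0.47 (SE 0.20). The kinase genes Gsk3b (0.38, SE 0.17) and Csnk1a1 (0.36, SE 0.17) differed the other way. The Axin2 means, 6.09 and 6.81, were near or under the array medians, so its size is poorly known.

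The second comparison set tumour lineages, as the mean of the GEM and spontaneous group means, against the immortalized lines EPH4 and NMUMG. Wwtr1 averaged 9.05 ± 0.16 (SD, n = 10) in GEM, 9.01 ± 0.36 (SD, n = 5) in spontaneous and 8.49 ± 0.28 (SD, n = 2) in immortalized lineages, a difference of 0.54 (SE 0.19, adjusted p = 0.246) that was 0.34 without EPH4. F311, at 8.45, lay among the immortalized lines. Epithelial markers moved with this contrast, with 9 of 9 lower in tumour lines (median -1.25), and their part in it was not tested.

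Ankrd1 differed by -0.97 (SE 0.51, adjusted p = 0.478), at 10.80 ± 0.36 (SD, n = 2) in immortalized against 9.96 ± 0.69 in GEM and 9.69 ± 0.86 in spontaneous lineages. Ccn2 differed by -0.75 (SE 0.43, adjusted p = 0.529), and by -0.32 without NMUMG and -1.19 without EPH4. Its immortalized mean of 11.41 ± 0.62 (SD, n = 2) was at the level of the GEM mean of 11.39. The remaining members differed by -0.31 (Amotl2, SE 0.26) to 0.19 (Yap1, SE 0.15), and Amotl2 by -0.024 without NMUMG.

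No member passed an adjusted p of 0.05 between tumour and immortalized lineages in limma, where 0.298% of probe sets did. Wwtr1 was the 1 member at an unadjusted p under 0.05, a level that 11.9% of probe sets reached. Lineages overlapped for every member, against 3.28% of probe sets that did not overlap.

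Of the listed genes 0 passed in this comparison, and the median over all probe sets was 0.03. YAP and TAZ target genes were lower in tumour lines at 14 of 19 (median -0.34), with Tgfb2, a TGF-beta ligand, at -0.93 (SE 0.58) and 1 gene at an unadjusted p under 0.05, Nuak2 (-0.68, SE 0.28). Hippo kinases and upstream regulators were lower at 10 of 14 (median -0.19), and 3 had an unadjusted p under 0.05. These were Frmd6, a FERM-domain protein that acts upstream of the kinases, at 1.09 (SE 0.25, adjusted p = 0.0776), Taok1 at -1.05 (SE 0.36) and Stk4, which encodes the kinase MST1, at -0.35 (SE 0.15). The Frmd6 difference rested unequally on the 2 immortalized lines, with 1.59 without EPH4 and 0.59 without NMUMG, each against 1 array. With both lines kept, it passed in limma without the lineage F311 (1.18, adjusted p = 0.0324) and without the 3 narrowest arrays (adjusted p = 0.0355). It also passed with every table entry tested (adjusted p = 0.0399). In all other settings that kept both lines it did not pass. Among these, the adjusted p was 0.169 with lines blocked by lineage, 0.119 after median centring and 0.107 without the dimmest probe sets.

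Among coactivators, TEAD factors and partners 7 of 12 were higher in tumour lines (median 0.12). At an unadjusted p under 0.05 were 2 of them, Wwtr1 and Vgll4, a TEAD-binding competitor of YAP (0.45, SE 0.17), and Amot differed by 0.75 (SE 0.40). Actin and serum response factor targets were higher at 12 of 13 (median 0.28), with 2 at an unadjusted p under 0.05. These were Srf itself (0.82, SE 0.22) and the calponin gene Cnn2 (0.86, SE 0.34), while Acta2 differed by 1.77 (SE 1.72). Mesenchymal markers were higher at 7 of 9 (median 0.56) beside these, and their part was not tested. In the destruction complex 4 of 8 were higher (median -0.07), with Apc at -0.61 (SE 0.36) and Axin2 at 0.60 (SE 0.47). In the CCN family 2 of 5 were higher (median -0.10), with Ccn4 at -0.84 (SE 0.57). With every tumour lineage weighted equally, unlike in the difference, the tumour mean of Axin2 was 6.33. This mean, the immortalized mean of Axin2 (5.85) and the immortalized mean of Acta2 (6.26) were under all array medians. The sizes of the Axin2 and Acta2 differences are poorly known.

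The third comparison asked whether GEM lineages with a Myc transgene differ from those with other drivers, 5 against 5. Tead2 averaged 8.63 ± 0.98 (SD, n = 5) in Myc and 9.69 ± 0.65 (SD, n = 5) in other GEM lineages, a difference of -1.07 (SE 0.46, adjusted p = 0.900). The Myc lineages did not move together: 6DT1 and MVT1 read 7.40 and 7.77, while cMyc, MVT2 and Myc83 read 9.22, 9.10 and 9.64, inside the range of the other drivers from 8.77 to 10.29.

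Ccn2 averaged 11.67 ± 0.40 in Myc and 11.12 ± 0.56 in other GEM lineages, a difference of 0.55 (SE 0.28, adjusted p = 0.974). Without p1522 the difference was 0.32. Ankrd1 differed by 0.64 (SE 0.35, adjusted p = 0.999), at 10.28 ± 0.32 against 9.65 ± 0.84, and the Myc lineages lay between 9.86 and 10.65 within the wider range of the other drivers. The remaining members differed by -0.20 (Amotl2) to 0.39 (Tead1). Both ends rested on 1 lineage, since Tead1 differed by 0.042 without DB7 and Amotl2 by 0.016 without ZD2508. In limma 0 of 10 members passed, where 0.0119% of probe sets did. Tead2 alone had an unadjusted p under 0.05, against 5.41% of probe sets, and lineages overlapped for every member, against 0.621% that did not overlap.

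Listed genes again gave 0 calls. Over all probe sets the median was 0.03, 58.1% were higher in Myc lineages, and 5.41% had an unadjusted p under 0.05. YAP and TAZ targets were lower in Myc lineages at 14 of 19 (median -0.20), and 3 had an unadjusted p under 0.05: Tgfb2 (-0.95, SE 0.43), Rbms3 (-0.87, SE 0.37) and Dock5 (0.72, SE 0.30). The tissue factor gene F3 differed by -0.97 (SE 0.60). Hippo kinases and upstream regulators were lower at 9 of 14 (median -0.11), with Nf2 at -0.60 (SE 0.20) and the LIM protein gene Wtip at -0.36 (SE 0.27). Basal markers were lower in Myc lineages at 5 of 5 (median -0.57), with 0 at an unadjusted p under 0.05. Their part was not tested. The destruction complex was lower at 6 of 8 (median -0.12), with Btrc at -0.62 (SE 0.18) and Axin2 at -0.22 (SE 0.32).

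Coactivators, TEAD factors and partners were higher at 8 of 12 in Myc lineages (median 0.15), with Tead3 at -0.52 (SE 0.31) after Tead2. In the CCN family 2 of 5 were higher (median -0.07), with Ccn3 at 1.29 (SE 0.49) and Ccn5 at -0.77 (SE 0.52). Actin and serum response factor targets were higher at 9 of 13 (median 0.15), with Tpm2 at 0.90 (SE 0.49) and the matrix protein gene Thbs1 at -0.78 (SE 0.45). The other-driver means of Ccn3 (6.20) and Tpm2 (6.41) were under all array medians. So were the Myc means of Tgfb2 (6.70) and Rbms3 (6.34), and the Myc and other-driver means of Axin2 (5.97 and 6.20). The sizes of these differences are poorly known.

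**Figure D3:**
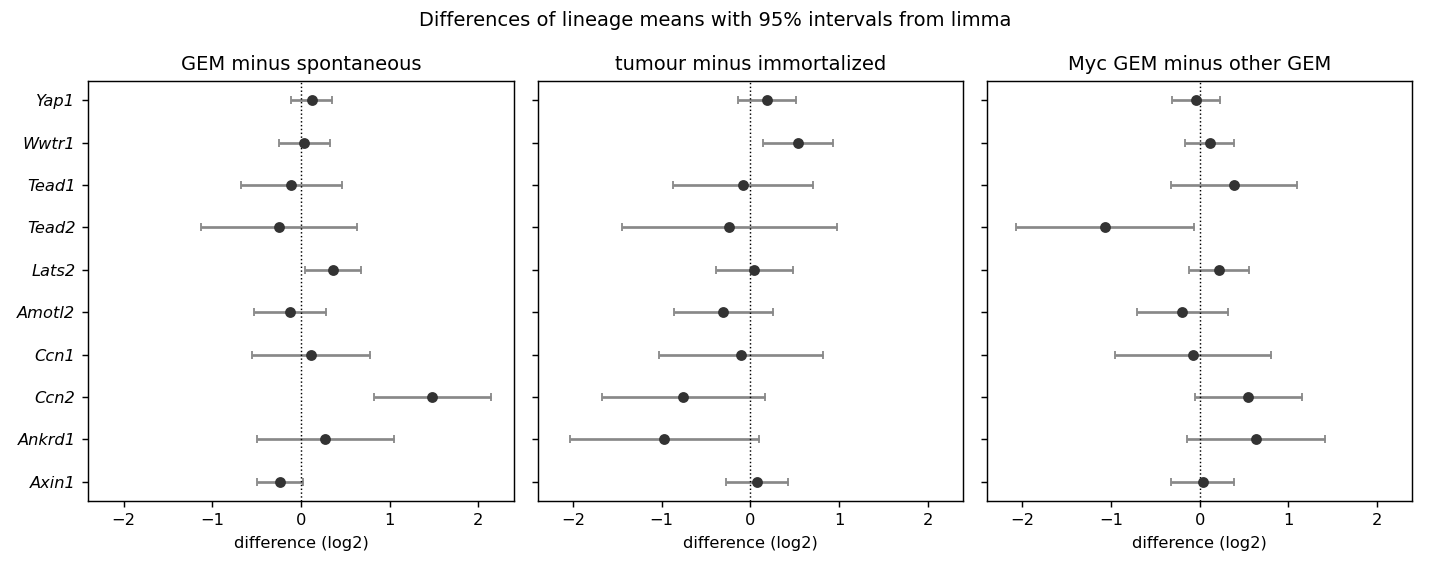
Differences of lineage means (horizontal axes, log2) for the 10 members in the 3 comparisons, with 95% intervals from limma that are not adjusted for the number of probe sets. For GEM minus spontaneous, Ccn2 lies at 1.48 and the other members lie between -0.25 and 0.36.

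Pairs of lines from 1 source show how far the members move without a change of origin, with 1 array per line and no test. In the 4T tumour, 4T1 exceeded 4T07 for all of Ccn1 (10.84 and 9.72), Ccn2 (11.05 and 10.03), Ankrd1 (11.35 and 10.19) and Amotl2 (8.61 and 7.98). The differences, 1.12, 1.02, 1.16 and 0.63, were larger in size than those of 92.1% (Amotl2) to 97.8% (Ankrd1) of probe sets between these lines. Labels describe 4T1 as fully metastatic and 4T07 as spreading to the lung without growing there. Epithelial markers were close, with a mean of 9.80 in 4T1 and 9.33 in 4T07.

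Against 67NR, the line described as not spreading, 4T1 was higher in Ccn1 (by 0.74), Ccn2 (2.99), Ankrd1 (1.76), Amotl2 (0.32) and Lats2 (0.62). In 4T07 the targets went both ways, with Ccn2 1.97, Ankrd1 0.60 and Lats2 0.41 higher than in 67NR and with Ccn1 at -0.38 and Amotl2 at -0.31. Tead2 was 2.07 higher in 4T07 and 1.59 higher in 4T1, and Wwtr1 differed by -0.56 and -0.87. Epithelial markers differed as well: 1 of 9 exceeded the array median in 67NR (mean 6.18) and 9 of 9 did in 4T07 and 4T1, and their part was not tested.

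Of the nodule lines, D20R exceeded D2A1 in Ccn1 by 1.81 (11.64 and 9.83), in Ccn2 by 2.18 (11.10 and 8.92) and in Amotl2 by 0.98 (8.92 and 7.93). Yap1 ran the other way, at 8.81 in D20R and 9.43 in D2A1. Ankrd1 (8.32 and 8.41) and Lats2 (8.09 and 8.08) were level. These lines shared a low epithelial marker mean, 6.66 in D20R and 6.33 in D2A1.

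M6C, from the lung metastasis, had less Ccn1 (9.77) than its parent M6 (10.71), less Ankrd1 (8.20 and 9.40) and less Amotl2 (8.23 and 8.79). The Ccn1 and Ankrd1 differences, -0.95 and -1.20, exceeded in size those of 98.2% and 99.2% of probe sets between these lines. Ccn2 (11.23 and 11.03) and Lats2 (8.62 and 8.22) were slightly higher in M6C. The direction in M6C was thus opposite to that in 4T1 for Ccn1, Ankrd1 and Amotl2.

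Between the Wnt lines, Ankrd1 read 6.96 in 2508 and 10.85 in 2855, a difference of 3.89 that was larger in size than that of 99.9% of probe sets. Ccn1 differed by 0.59, Ccn2 by 0.74, Lats2 by 0.32 and Amotl2 by -0.14. Both lines were among the 3 highest in Ccn1 and the 2 highest in Amotl2, while 2508 ranked 8 of 22 in Ccn2 and 9 of 22 in Lats2. Epithelial markers also differed, with 2 of 9 above the array median in 2508 and 7 of 9 in 2855. Basal markers differed the other way, with a mean of 11.53 and 5 of 5 above the array median in 2508 and a mean of 8.30 and 2 of 5 in 2855. Over the 17 lineages, ZD2508 among them, Ankrd1 had r = -0.55 (rho = -0.43) with the basal marker mean, and r = -0.44 without the narrow arrays. The part of either marker group was not tested. Both arrays were among those with the narrowest spread of values.

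**Figure D4:**
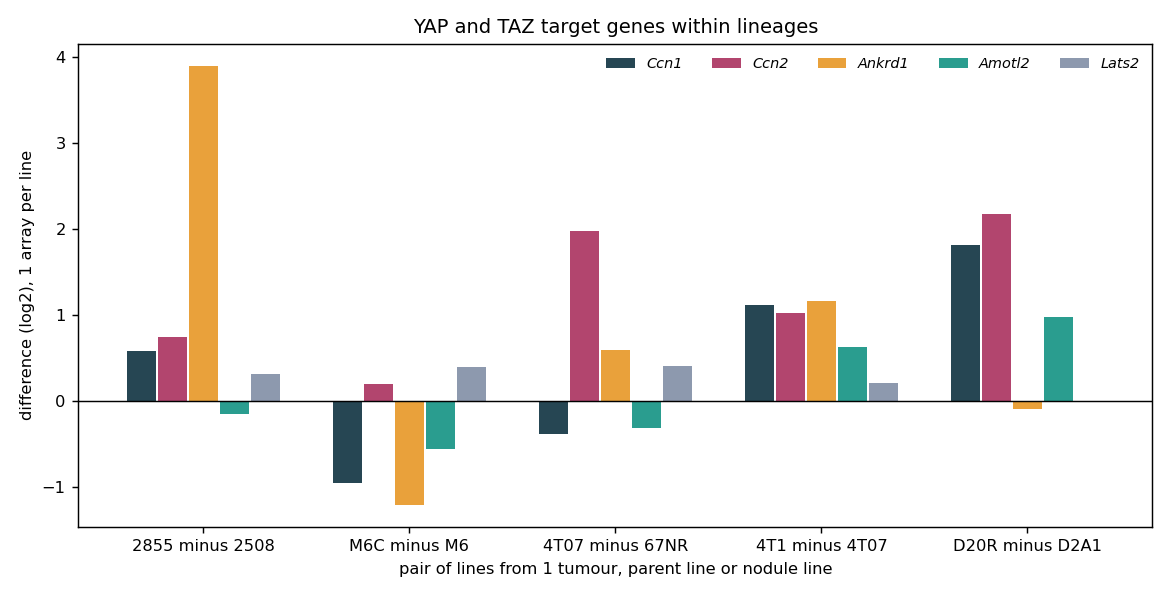
Differences (vertical axis, log2) of 5 YAP and TAZ target genes between lines of 1 lineage (horizontal axis), 1 array per line. All 5 are higher in 4T1 than in 4T07, and Ankrd1 is 3.89 higher in 2855 than in 2508.

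Members were compared with each other over the 17 lineages, as a description of 45 pairs with no test. Points share an array type, and lineages of 1 group share an origin. The highest correlations were between Ccn1 and Amotl2 (Pearson r = 0.60, Spearman rho = 0.41) and between Ccn2 and Lats2 (r = 0.56, rho = 0.61). Without the 3 arrays of narrowest spread, which left 15 lineages, they were 0.40 and 0.55. Tead1 and Axin1 were then highest at r = 0.57 (0.32 over 17 lineages). Ankrd1 and Axin1 were then largest in size at r = -0.67 (-0.41 over 17 lineages). Ccn1 and Ccn2 reached r = 0.40 (rho = 0.41). Ankrd1 followed neither, with r = -0.30 to Ccn1 and 0.14 to Ccn2.

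Coactivator RNA had low or negative correlations with target RNA over the 17 lineages. Yap1 had r = -0.47 with Ccn1, -0.42 with Amotl2, -0.10 with Ccn2, -0.08 with Ankrd1 and -0.06 with Lats2. Wwtr1 had r between -0.21 and -0.13 with the first 4 of these genes and 0.28 with Lats2. Over the 10 GEM lineages alone Yap1 had r = 0.60 with Ankrd1 and between -0.66 and -0.45 with the other 4 targets. Yap1 and Wwtr1 had r = 0.43 with each other over the 17 lineages, -0.13 over the 10 GEM lineages and 0.07 over the 22 lines. Over the 17 lineages Tead1 and Tead2 had r = -0.34. Ccn1 had r = 0.65 with the basal marker mean and 0.51 with the mesenchymal marker mean, which were 0.43 and 0.39 without the narrow arrays.

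**Figure D5:**
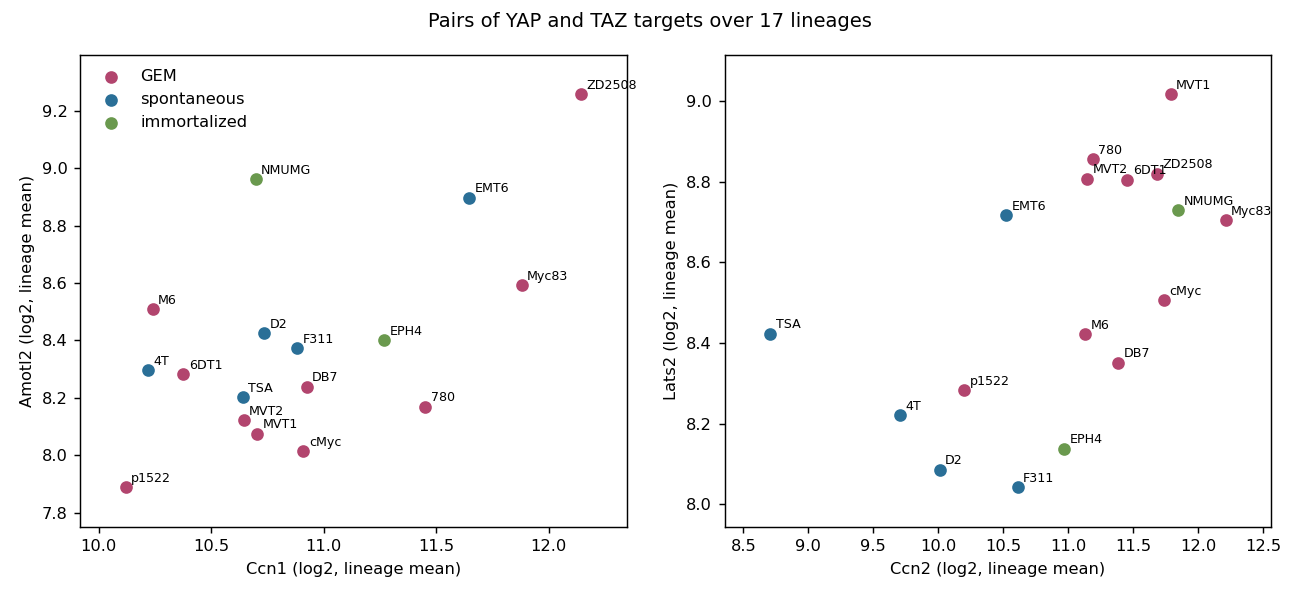
Lineage means (log2) of Amotl2 against Ccn1 and of Lats2 against Ccn2, coloured by origin, with each of the 17 lineages named. ZD2508 is highest in both Ccn1 and Amotl2, and p1522 is lowest in both.

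Genes most like each member were named by Pearson correlation over 17 lineages among 9924 genes whose highest lineage value exceeded 6.88, the median of the array medians. Being the highest of so many, the values describe the choice and are no test, and a gene near background could enter through 1 high lineage. Closest to Ccn1 were Foxd1 (r = 0.83), Cnn1 (0.82), Nr2f2 (0.79), Tagln (0.78) and Wtip (0.78), of which Cnn1 and Tagln encode contractile proteins of smooth muscle. Cnn1 and Tagln, with means of 6.47 and 6.08 under every array median, exceeded 6.88 in only 3 and 2 of the 17 lineages, and their r was 0.74 and 0.68 without the narrow arrays. Closest to Ccn2 were Nipal3 (0.91), Bcdin3d (0.84), Sh3bp4 (0.83), the lysosomal protease gene Ctsd (0.83) and Fads3 (0.81). No gene was shared between the lists of Ccn1 and Ccn2.

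For Ankrd1 the closest were Rnf141 (0.85), Nabp1, Tube1, Tmem41b and Vps26c (0.79). Amotl2 was followed by Olfr898 (0.85), Papss2, Flrt2, AA986860 and Mos (0.80), of which Papss2, AA986860 and Mos had means under every array median. Lats2 was followed by Npc1 (0.77), Lima1, Mbnl2, Mdfic and Crebl2 (0.73). The nearest genes to Yap1 were Ehmt1 (0.82), Acad9, Slc29a1, Erlec1 and Elp3 (0.78), and to Wwtr1 they were Ciz1 (0.85), Usp19, Cyb5r3, Hp1bp3 and Tmem259 (0.79). Tead1 was matched by Cit (0.90), Setd1a, Nfat5, Sec24b and Vamp2 (0.87). Tead2 was matched by the planar polarity gene Vangl2 (0.87), Pmepa1, the Wnt receptor gene Fzd7, Lrp12 and Gdpd1 (0.84), and Axin1 by Rcl1 (0.82), Mybbp1a, Git1, BC052040 and Pom121 (0.77).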

How the data were processed

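Mouse exon arrays of 22 cell lines were analysed from the value table that the authors deposited. The deposited values, taken here as log2 because they run from 2.74 to 13.91, were made by the authors with GCOS and mm9, per the submitters' processing notes. The scale, background correction, summarization and normalization are not stated in those notes, the labels or the header.

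Of 23332 entries the 16755 numbered as transcript clusters were tested: 14996 had 1 gene symbol, 1019 several and 740 none. Lines of 1 lineage were averaged, and nothing states separate cultures, so p-values measure the spread between lineages, and the number of arrays limits the precision. Tests used limma (3.58.1, R 4.3.3) with Benjamini-Hochberg adjustment over all tested probe sets at 0.05. GEM against spontaneous and tumour against immortalized came from 1 fit of 17 lineages, and Myc against other GEM from the 10 GEM lineages. The fit was tested on simulated data.

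Members and lists were chosen with earlier results of these data known. Named genes were the members, the 5 genes most like each, and in each list and comparison the 2 largest differences, and any past the threshold; those at an unadjusted p under 0.05 were added after their values were seen. Listed genes without a probe set of 1 symbol were not analysed here. Correlations without the narrow arrays were added after seeing the data. Plots used Python 3.11.15 and matplotlib 3.10.9.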

Additional observations from a re-analysis of the deposited data

Results flagged for a closer look

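Each member's GEM lineages (n = 10) and spontaneous lineages (n = 5) were searched for a lineage far from the rest, by whether the gap to its nearest neighbour, over the whole range, passed Dixon's 95% limit. Chance marks about 1 in 20 such groups, 20 groups were searched, and 2 were marked. Tead1 in DB7, at 8.67, was the lowest GEM lineage, with a gap of 0.681 of the range. Amotl2 in ZD2508, the lineage of 2508 and 2855, was the highest GEM lineage at 9.26, with a gap of 0.486. Both ZD2508 arrays were among the 3 with the narrowest spread of values, and these lines grew in a medium of their own. The part of either was not tested.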

How the results depend on the processing

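The 30 member differences were recomputed under 10 kinds of alternative and with each lineage left out, which gave 680 values. Of the 30, 18 kept their sign throughout, 27 values changed sign, and 1 value passed an adjusted p of 0.05, Ccn2 without p1522. Between GEM and spontaneous lineages the sign turned for Ccn1 without the 3 arrays of smallest SD (-0.0048), for Amotl2 with unblocked lines as replicates (0.0087), and for Wwtr1 with lines blocked by lineage (-0.017), with unblocked lines (-0.10) and without the 3 arrays (-0.12). Without those arrays it also turned for Acta2 (-0.15) and, between Myc and other GEM lineages, for Ccn1 (0.22), Amotl2 (0.016) and Axin2 (0.036). Between Myc and other GEM lineages that setting removes only ZD2508. It is therefore the same refit as leaving ZD2508 out, and its member values are counted under both. With 1 lineage left out, GEM minus spontaneous ranged from -0.037 to 0.32 for Ccn1, -0.055 to 0.45 for Ankrd1, -0.10 to 0.15 for Wwtr1 and -0.27 to 0.067 for Tead1. Tumour minus immortalized ranged from -0.39 to 0.18 for Ccn1, -0.32 to 0.16 for Tead1, -0.25 to 0.34 for Lats2 and -1.78 to 0.10 for Ccn4. Myc minus other GEM ranged from -0.32 to 0.22 for Ccn1, -0.33 to 0.016 for Amotl2, -0.088 to 0.012 for Yap1, -0.079 to 0.11 for Axin1 and -0.41 to 0.036 for Axin2. With 1 lineage left out, 23 of the 30 member differences and 17 of the 29 of the other listed genes named by the rule moved by over 1.5 times or changed sign; the members that did not were Ccn2, Lats2 and Axin1 between GEM and spontaneous lineages, Ankrd1 between tumour and immortalized lineages, and Ankrd1, Tead2 and Lats2 between Myc and other GEM lineages. The cause was not tested.

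The count of probe sets past the threshold was 19 between GEM and spontaneous lineages, 12 with lines blocked by lineage, 91 with unblocked lines, and 9 to 32 with 1 lineage left out (9 without D2, 10 without 4T, 12 without EMT6, 32 without 780). Between tumour and immortalized lineages it was 50, then 100 after quantile normalization (66 higher and 34 lower, against 19 and 31), 2 without the dimmest probe sets, which leaves fewer tested, 412 with every table entry, 103 with unblocked lines, and 28 to 413 with 1 lineage left out (28 without 6DT1, 32 without 4T or D2, 33 without EMT6, 82 without TSA, 139 without EPH4, 413 without NMUMG). Median centring gave 58 there, 15 higher and 43 lower. Where the immortalized side was left with 1 array, that array was assumed to vary like the other groups, and no count is given. Between Myc and other GEM lineages it was 2 (0 higher), then 3 after quantile normalization (1 higher and 2 lower), 4 with unblocked lines, 0 in 1 fit of all 17 lineages, and 2 to 15 with 1 lineage left out (15 without p1522). The alternative of another probe set was not run, since each member had 1. No paired analysis of these comparisons was possible, because no lineage had lines on both sides. The labels also give no replicate numbers.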
